A study of Mus musculus with 18 samples.

Results

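Cells carrying p53ER, in which the tumour suppressor p53 is fused to an estrogen receptor, were compared with uninfected cells of the same line before any 4-hydroxytamoxifen (4-OHT) was given. The comparison took 12 of the 18 arrays of the series by their titles: 6 of p53ER cells (3 at 0 h and 3 after 4 h with vehicle) and 6 of uninfected cells at the same times. All were cells of TKO, a mouse line described in the labels as telomere dysfunctional, and total RNA was hybridised to Affymetrix arrays with 1 colour. The other 6 arrays held p53ER and uninfected cells after 4 h with 100 nM 4-OHT, 3 of each, and serve here only for side-by-side values. The labels name neither the vector nor a clone, and the uninfected cells are the only control: cells infected with a vector without the fusion are not among these groups, so that infection and the fusion itself cannot be told apart. Nor do the labels say whether replicates were separate cultures, so p-values measure only how these arrays spread, and that spread may be technical.

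In fusions of this kind the hormone-binding part of the receptor is held by chaperones, which keeps the attached transcription factor inactive until 4-OHT binds. p53 then activates genes that arrest the cell cycle (Cdkn1a), start cell death (Pmaip1, Bbc3), repair DNA and limit p53 itself (Mdm2). The question put to the untreated arrays was what differed between the cell populations while the fusion should be silent, including any activity of the fusion without its ligand.

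Before scaling, the 2% trimmed mean signal of the arrays ran from 47.2 to 147, and all values below are log2 of the scaled signal plus an offset of 4.11, a scale on which a probe set with no signal stands at 2.04. On the first principal component of the 12 untreated arrays, with 30.4% of the variance, 3 arrays from 3 separate groups stood apart from the rest: p53ER vehicle replicate 1, uninfected 0 h replicate 2 and, less far, p53ER 0 h replicate 3. Values without these 3 arrays are added where they differ from the full value by over 1.5 times or in sign. The second component held 21.5% of the variance. On it the untreated arrays of replicate 3, in both cell types, stood between 27.0 and 32.3. Those of replicates 1 and 2 stood between -22.2 and -7.84. Both populations had mesenchymal markers at high levels, with all 10 (Col1a1, Vim, Fn1, Sparc and others) above a mean scaled signal of 100. Their summed signal ran from 46509 to 66255 in p53ER and from 46453 to 72608 in uninfected arrays. Markers of other cell types were far dimmer: the 7 epithelial markers summed to between 183 and 277 against between 196 and 306, with Cdh1, the epithelial cadherin, at a mean of 5.09 and 5.97. The 6 blood markers summed to between 173 and 203 against between 178 and 267, with Ptprc, the pan-leukocyte antigen CD45, at 5.83 and 7.21.

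Among genes whose untreated p53ER and uninfected arrays did not overlap, Mycn, Esr1 and Psrc1 had the 3 largest differences, at +7.05, +4.07 and +2.05 on the log2 scale. These 3 are the markers given with the comparison. They were chosen with earlier results of these data known, so their rank is not independent of that choice. Beyond these, p53 target genes tended to be slightly higher and cell cycle genes slightly lower, by log2 medians of +0.20 and between -0.36 and -0.14. None of these differences passed the threshold over all genes: 0 of 10916 genes (0%) had an adjusted p under 0.05 in the limma fit with time point and replicate number as terms, the smallest being 0.0636 for Mycn. At an unadjusted p under 0.05 there were 528 genes (4.84%), of which 320 (2.93%) were higher and 208 (1.91%) lower in p53ER cells. Without the replicate number as a block, 1 gene (0.00916%), Mycn, passed (limma adjusted p = 0.00174), with 329 genes at an unadjusted p under 0.05.

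Esr1 encodes estrogen receptor alpha, the receptor whose ligand-binding part is used in such fusions, and it serves as the check of the labels. Its brightest probe set stood at 6.96, 7.76 and 10.46 (lowest, median and highest log2 signal) in the 6 untreated p53ER arrays and at 2.99, 4.48 and 4.85 in the 6 uninfected arrays. Every p53ER array lay above every uninfected array. The fitted log2 difference was +4.07 (SE 0.62, limma adjusted p = 0.508). The uninfected mean, 4.26, lay below the lowest mean of the genes kept for testing, 4.74, so Esr1 was bright enough to be tested only through the p53ER arrays. The size against so dim a group is a lower bound that moves with the offset, from +3.39 with a larger offset to +4.46 with none. With 4-OHT the difference was +4.37 (SE 0.58), from arrays not used above. The other 2 Esr1 probe sets were dimmer. One was higher by 0.91 (SE 0.27) and in 6 of 6 pairs of arrays with the same time and replicate number, and the other differed by +0.56 (SE 0.39), higher in 4 of 6 pairs. The position of the probe sets on the transcript is not used here, so which part of the receptor each one reads was not tested. The other estrogen receptor genes and estrogen-responsive genes showed small differences. Of the 10 tested genes of that list, Esr1 included, 7 had a positive difference, with a median of +0.17, or 5 and +0.08 without the 3 arrays. Besides Esr1, Xbp1, a transcription factor of the unfolded protein response, was the other one at an unadjusted p under 0.05 (+0.25, SE 0.11). At that level 2.93% of all genes were higher.

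Mycn encodes N-Myc, a transcription factor of the Myc family that drives growth and is normally restricted to embryonic and neural tissues. Its brightest probe set stood at 11.45, 11.63 and 13.92 in untreated p53ER arrays and at 3.59, 5.66 and 6.66 in uninfected arrays. The lowest p53ER array was thus well above the highest uninfected array, and the fitted difference was +7.05 (SE 0.68), or 132-fold on this scale, with +6.72 at 0 h and +7.38 with vehicle. As scaled signal, the medians were 3170 in p53ER and 46.7 in uninfected cells. The same probe set differed by +6.81 (SE 1.52) between the cell types with 4-OHT. The other 2 Mycn probe sets showed no such difference: both were near the floor in both cell types, with medians from 2.96 to 3.86, and differed by -0.02 (SE 0.37) and +0.19 (SE 0.33). The first of these is listed with the same source sequence as the bright one. What transcript the bright probe set reads in p53ER cells was not tested.

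Replicate 3 of p53ER cells stood above replicates 1 and 2 on both probe sets. Mycn stood at a mean of 13.91 in the 2 untreated arrays of replicate 3 and at 11.57 in the 4 others, a gap of +2.34 (+2.03 after quantile normalization and +1.76 without scaling). For Esr1 the means were 10.03 and 7.47, a gap of +2.56. With 4-OHT the same replicate was higher by 2.42 for Mycn and by 2.03 for Esr1. Both probe sets thus stepped up in replicate 3 of p53ER cells. Uninfected arrays of replicate 3 showed no such step up, at 4.11 and 5.60 for Mycn and 4.57 and 2.99 for Esr1. Psrc1 also stood higher in replicate 3 of untreated p53ER cells, by 1.05 (+0.48 without scaling), but with 4-OHT by only 0.01. The cause of the step was not tested.

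Psrc1 encodes a microtubule-binding protein of the mitotic spindle and is a known target of p53. Its brightest probe set stood at 6.29, 6.80 and 7.80 in untreated p53ER arrays and at 3.69, 5.21 and 5.98 in uninfected arrays, again without overlap. The fitted difference was +2.05 (SE 0.45, 95% interval from 1.03 to 3.06), or 4.13-fold, and every one of the 6 pairs was higher in p53ER cells, by between 0.31 and 4.11. Over all genes this did not pass (limma adjusted p = 0.944, unadjusted 0.00127), but without the 3 arrays that stood apart the difference was +2.42 and did pass (adjusted p = 0.00865). Of the other 2 probe sets, the brighter was higher by 1.14 (SE 0.42) in 6 of 6 pairs, while the dimmer, near the floor, differed by -0.35 (SE 0.31).

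**Figure D1:**
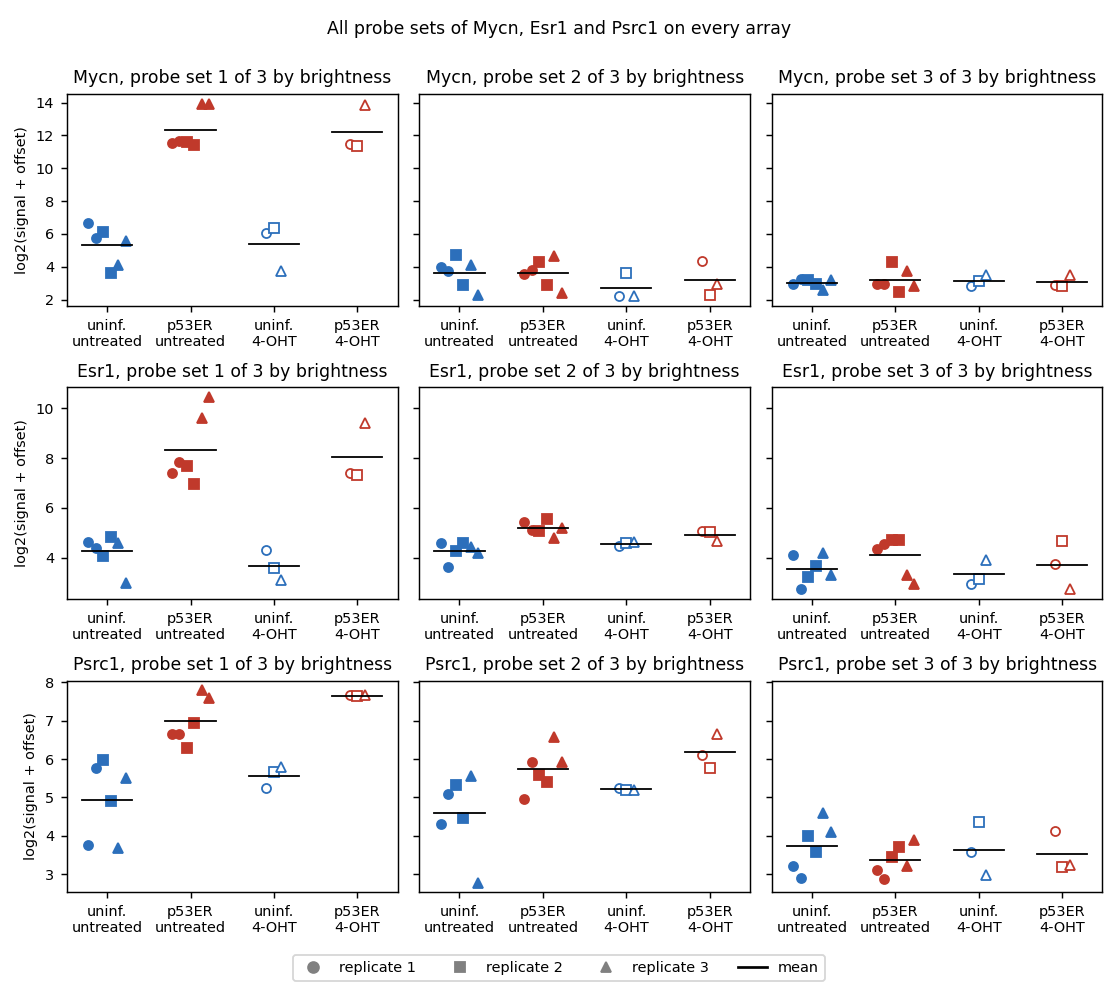
Log2(signal + offset) of the 3 probe sets of Mycn, Esr1 and Psrc1 (rows, brightest probe set at the left) on all 18 arrays, by cell type and treatment; the marker shape gives the replicate number and the line the group mean. On the brightest probe set of each gene the 6 untreated p53ER arrays lie above all 6 uninfected ones, and the other 2 Mycn probe sets show no gap.

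p53 target genes were next. Of the 50 genes of a p53 target list 48 were on the array and 42 were bright enough to be tested. Brightness was the mean over all 18 arrays, including the p53ER arrays with 4-OHT. Some targets were therefore kept only through p53ER arrays. Against a lowest mean kept of 4.74, the untreated uninfected mean of Trp53inp1 was 4.28, and the lowest such mean among the 42 was 4.10. The counts below include these targets and were not repeated without them. Zfp365 had untreated means of 4.66 in p53ER and 4.42 in uninfected cells. Of the 42 tested targets, 35 had a positive difference in untreated cells, with a median of +0.20. Of all tested genes 5398 (49.5%) were positive, with a median of -0.00. At an unadjusted p under 0.05 there were 9 higher targets and 0 lower, against 2.93% of all genes higher, and 4 targets were higher in 6 of 6 pairs, against 1.97% of all genes; none passed the adjusted threshold. The 9 were Psrc1, Trp53inp1, Ephx1, Phlda3, Ddit4l, Cdkn1a, Bbc3, Sesn2 and Ddit4, with differences from +0.39 to +2.05. Psrc1, a marker chosen with earlier results of these data known, counts in the 35, the 9 and the 4. Zfp365, from the title of the series, counts in the 35. The list too was chosen with those results known, so these counts are not independent of that choice. Averaged over the pairs of each replicate number, the median of the list was +0.04 in replicate 1, +0.21 in replicate 2 and +0.39 in replicate 3. In replicate 1 the 0 h pair had +0.18, near the +0.20 of replicate 2 at 0 h, and the vehicle pair, which holds p53ER vehicle replicate 1, had -0.12. The fitted median was +0.26 at 0 h and +0.17 with vehicle, and +0.21 with 38 positive genes without the 3 arrays that stood apart (50.7% of all genes positive there).

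Phlda3, which encodes an inhibitor of the kinase Akt, was the other target whose groups did not overlap. It stood at 8.88, 9.12 and 9.92 in untreated p53ER and at 8.24, 8.50 and 8.83 in uninfected arrays, a difference of +0.72 (SE 0.15, limma adjusted p = 0.681). Replicate 3 gave the highest p53ER values, 9.92 and 9.55, and the other 4 lay between 8.88 and 9.18, close above the uninfected range.

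Cdkn1a encodes p21, the cyclin-dependent kinase inhibitor through which p53 arrests the cell cycle. It stood at 6.93, 7.80 and 9.37 in untreated p53ER and at 6.64, 7.31 and 7.996 in uninfected arrays, and these ranges overlapped. The difference was +0.70 (SE 0.23, limma adjusted p = 0.998), higher in 5 of 6 pairs. A dimmer second probe set of Cdkn1a was higher by 1.54 (SE 0.29) in 6 of 6 pairs. Replicate 3 again gave the highest p53ER arrays, at 8.63 and 9.37.

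Among 6 further targets the differences ran from +0.25 to +1.03. Mdm2, the ubiquitin ligase that degrades p53, stood at 6.77, 7.48 and 8.73 in p53ER and at 6.84, 7.10 and 7.95 in uninfected arrays. Its difference was +0.30 (SE 0.23), with +0.65 at 0 h and -0.04 with vehicle, so the sign was not the same at both times, and +0.45 (SE 0.24) without the 3 arrays that stood apart. Pmaip1, the gene of the death-promoting protein Noxa, differed by +0.38 (SE 0.45). Bbc3, which encodes the pro-apoptotic protein Puma, differed by +0.48 (SE 0.19) and was higher in 6 of 6 pairs. Trp53inp1, a stress protein that promotes p53-dependent death, differed by +1.03 (SE 0.46, higher in 5 of 6 pairs), and its p53ER arrays spread from 3.12 to 7.14. It differed by +1.60 (SE 0.33) without the 3 arrays. Ddit4l, an inhibitor of mTOR signalling, differed by +0.71 (SE 0.21, 6 of 6 pairs). Zfp365, the zinc finger gene named in the title of the series, was dim in both cell types, with medians of 4.87 and 4.42, and differed by +0.25 (SE 0.29, 4 of 6 pairs), or by +0.47 (SE 0.40) without the 3 arrays.

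The sequences upstream of 3 of these targets are shown because the genes differ in how they stood in untreated cells: Psrc1 and Phlda3 without overlap, Cdkn1a with it. Each run is the 250 bases before a RefSeq transcription start in GRCm38.p6, 5′ to 3′ on the gene's strand, and capitals mark matches to the p53 half-site consensus, searched on both strands, on which it reads alike. The windows are chr3:108383554-108383803 (plus strand) for Psrc1, chr1:135765835-135766084 (plus) for Phlda3 and chr17:29090729-29090978 (plus) for Cdkn1a, where Psrc1 and Cdkn1a have a further listed start.
Psrc1: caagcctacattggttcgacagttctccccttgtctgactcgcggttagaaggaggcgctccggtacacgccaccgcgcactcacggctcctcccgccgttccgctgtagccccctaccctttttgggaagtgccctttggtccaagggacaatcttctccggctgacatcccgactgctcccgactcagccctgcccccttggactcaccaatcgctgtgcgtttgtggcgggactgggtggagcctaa
Phlda3: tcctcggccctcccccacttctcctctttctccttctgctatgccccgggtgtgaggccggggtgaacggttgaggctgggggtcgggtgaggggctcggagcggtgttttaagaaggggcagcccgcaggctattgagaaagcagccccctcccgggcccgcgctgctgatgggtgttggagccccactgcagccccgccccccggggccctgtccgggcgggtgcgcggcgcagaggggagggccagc
Cdkn1a: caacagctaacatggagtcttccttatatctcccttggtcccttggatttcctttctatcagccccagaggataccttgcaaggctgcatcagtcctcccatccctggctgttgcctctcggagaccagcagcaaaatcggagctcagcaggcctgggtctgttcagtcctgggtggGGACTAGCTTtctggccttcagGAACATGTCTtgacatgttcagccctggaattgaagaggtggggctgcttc
The Cdkn1a window held 2 half-sites, the first 73 bases before the start. The Psrc1 and Phlda3 windows held 0, which says only that these letters were not in these windows. Of 32851 promoter windows of the same length, 2341 (7.13%) held at least 1 half-site. The other Psrc1 and Cdkn1a windows held 0, that of Cdkn1a (chr17:29093519-29093768) lying downstream of the window shown. Of the other genes searched, the Mdm2 window held 1 and those of Foxo3, Mxd4 and Zfp365 held 0.

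The same contrast was read in the 6 arrays with 4-OHT, which share no array with the untreated comparison and in which the fusion has its ligand. There 13 genes (0.119%) passed the threshold, all higher in p53ER cells, and 1077 (9.87%) had an unadjusted p under 0.05. Pmaip1 rose by 3.63 (SE 0.27), Mdm2 by 3.15 (SE 0.18), Cdkn1a by 3.03 (SE 0.15) and Psrc1 by 2.09 (SE 0.18), each with a limma adjusted p under the threshold. Of the 42 tested p53 targets 37 were positive with 4-OHT, against 50.4% of all genes, with a median of +0.87. These 6 arrays also counted in the brightness by which the 42 were kept.

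The difference between the 4-OHT contrast and the untreated contrast was tested in 1 fit over all 18 arrays, a test added after the data were seen. In it 298 genes (2.73%) had an unadjusted p under 0.05, and 4 genes (0.0366%) passed, all with the larger difference with 4-OHT: Mdm2 by 2.85 (limma adjusted p = 0.00477), Nlrc5 by 2.47 (0.0322), Cdkn1a by 2.33 (0.0322) and Phlda3 by 1.53 (0.0322). Nlrc5, a regulator of MHC class I genes, was named after its values were seen, and its untreated difference was -0.14 (SE 0.22), or -0.31 (SE 0.30) without the 3 arrays. For Psrc1 the difference was +2.05 untreated and +2.09 with 4-OHT, a gap of +0.04 (SE 0.64, adjusted p = 1.00), while the other 12 genes that passed with 4-OHT had untreated differences from -0.14 to +1.03. That standard error leaves room for a gap of more than 1 in either direction. The untreated +2.05 pools +2.43 at 0 h and +1.66 with vehicle. Only the vehicle arrays match the 4-OHT arrays in time. Within p53ER cells, Psrc1 stood at 7.67, 7.63 and 7.66 with 4-OHT, between the untreated replicate 3 arrays (7.80 and 7.58) and above the other 4 (6.29 to 6.94). Uninfected arrays stood at 5.24, 5.66 and 5.79 with 4-OHT, and from 3.69 to 5.98 untreated.

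Across the 42 targets, the untreated and the 4-OHT difference correlated at Pearson's r 0.613 (Spearman correlation 0.733), and at r 0.718 without Psrc1. Over all 10916 genes r was 0.349. These are descriptions over genes, which are not independent, and both contrasts come from the same cell populations. Trp53inp1, Cdkn1a and Phlda3 were among the higher targets in both contrasts, at +3.28, +3.03 and +2.24 with 4-OHT and at +1.03, +0.70 and +0.72 untreated. Pmaip1, Mdm2 and Zfp365, at +3.63, +3.15 and +1.96 with 4-OHT, stood nearer to 0 untreated, at +0.38, +0.30 and +0.25.

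**Figure D2:**
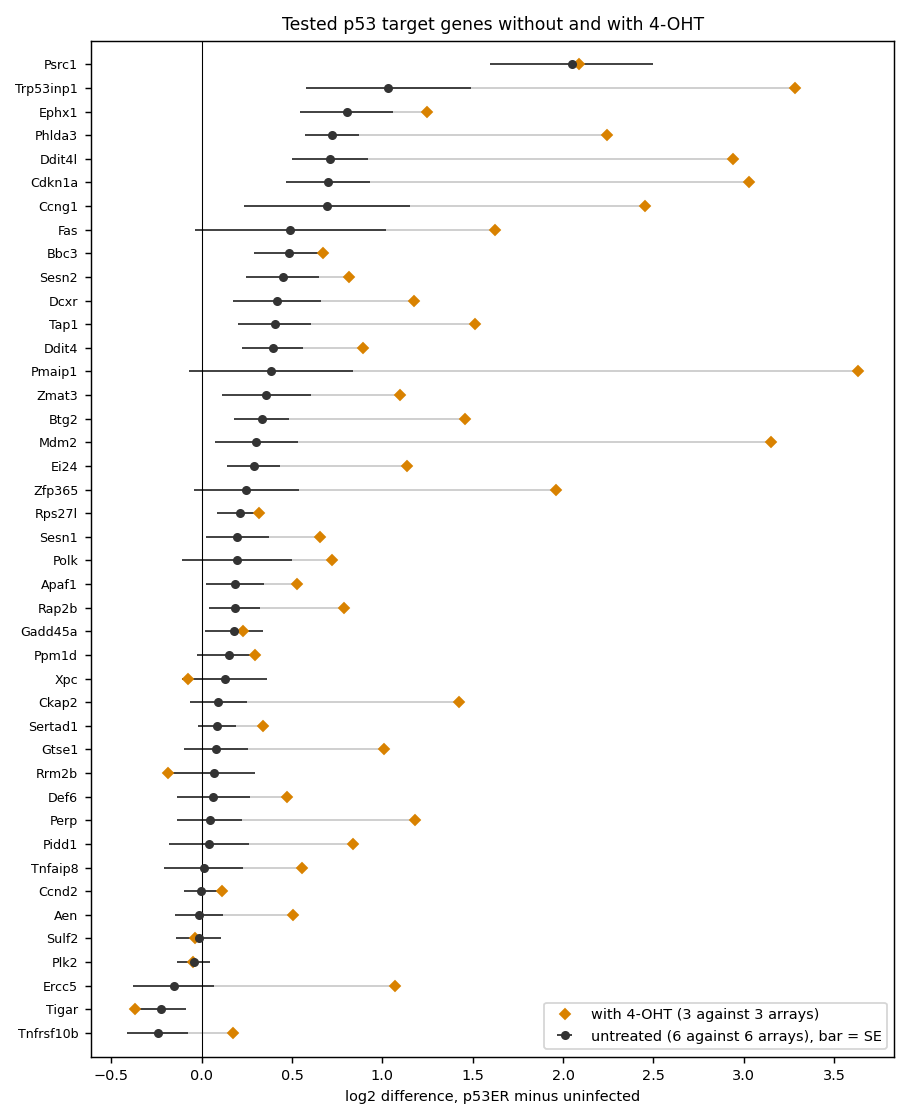
Log2 difference between p53ER and uninfected cells for the 42 tested p53 target genes, untreated (dark points, bars give the SE; 6 against 6 arrays) and with 4-OHT (orange diamonds; 3 against 3 arrays). Of the untreated points 35 lie right of 0, most within 0.5 of it. Psrc1 has nearly the same value in both, its untreated value being pooled over 0 h and vehicle.

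Apart from Mycn, Esr1, Psrc1 and Phlda3, 6 genes had all p53ER arrays above all uninfected arrays, making 10 of 10916 (0.0916%), and 5 (0.0458%) had all below. All 15 except Mycn, Esr1 and Psrc1 differed by less than 1 on the log2 scale, and none passed the adjusted threshold. Foxo3, a forkhead transcription factor that promotes arrest and stress resistance, stood at 6.96, 7.18 and 7.67 against 6.20, 6.26 and 6.83. It differed by +0.85 (SE 0.15, limma adjusted p = 0.476), and with 4-OHT by +0.71 (SE 0.21). Its other probe sets differed by +0.30 (SE 0.16) and +0.47 (SE 0.29).

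Mxd4, a partner of Max that opposes Myc proteins, stood at 7.03, 7.10 and 7.38 in p53ER and at 6.27, 6.63 and 6.999 in uninfected arrays. The difference was +0.50 (SE 0.13), and with 4-OHT +1.14 (SE 0.19). A second Mxd4 probe set was higher by 0.75 (SE 0.20) in 6 of 6 pairs, and the 2 dimmer ones differed by +0.39 and -0.05. Foxo3 and Mxd4 thus had the same sign in arrays that the untreated comparison did not use, without passing the threshold there.

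The remaining 4 higher genes were nearer to 0 with 4-OHT than untreated, except Zfyve27. Dixdc1, a Wnt pathway protein, differed by +0.76 (SE 0.21) untreated and by +0.15 (SE 0.27) with 4-OHT. Fancf, of the Fanconi anaemia core complex, differed by +0.37 and +0.00. Ndufaf3, an assembly factor of mitochondrial complex I, differed by +0.35 and +0.00, and Zfyve27, which shapes the endoplasmic reticulum, by +0.23 and +0.29. For Fancf the other 2 probe sets had the opposite sign (-0.39 and -0.26), as had 2 of the 3 others of Dixdc1 (-0.28 and -0.24).

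Among the lower genes was Fanci, a Fanconi anaemia protein that is loaded on damaged DNA. It stood at 5.77, 6.44 and 6.61 in p53ER and at 6.69, 6.79 and 7.10 in uninfected arrays, a difference of -0.53 (SE 0.14), and differed by -0.71 (SE 0.42) with 4-OHT. The others were Arhgef33 (-0.62, or -0.34 without the 3 arrays), Car10, a catalytically inactive carbonic anhydrase relative (-0.48), Il17rd, an inhibitor of FGF signalling (-0.45), and Snapc4, a subunit of the complex that transcribes small nuclear RNAs (-0.25). With 4-OHT these 4 differed by between -0.29 and +0.13, with Il17rd the only one below 0.

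**Figure D3:**
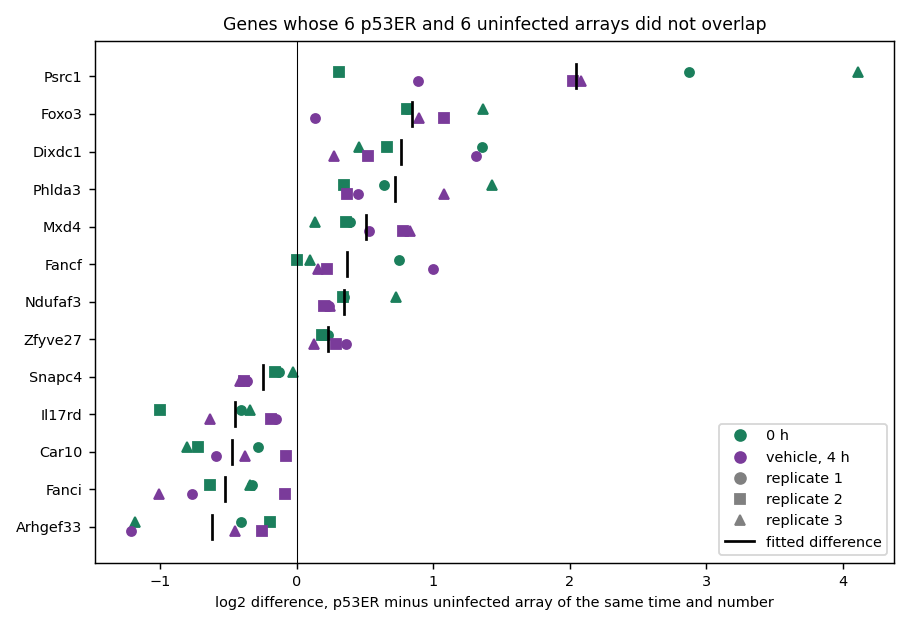
Log2 difference within each of the 6 pairs of arrays with the same time and replicate number. Points are pairs (colour gives the time, shape the replicate) and the black tick is the fitted difference. Of the 15 genes whose 6 p53ER and 6 uninfected arrays did not overlap, all but Mycn and Esr1 are shown. Psrc1 spread from 0.31 to 4.11, and every pair of the other higher genes shown lies between 0 and 2.

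Genes of the cell cycle stood lower in untreated p53ER cells in 2 of 3 replicate numbers. Of 26 tested genes for mitosis, 25 had a negative difference, with a median of -0.36, and Psrc1 was the exception. At an unadjusted p under 0.05 there were 3 lower (1.91% of all genes): Aurka (-0.48, SE 0.20) and Incenp (-0.31, SE 0.14), a spindle kinase and a subunit of the chromosomal passenger complex, and Cdk1 (-0.38, SE 0.14), the kinase that starts mitosis. The median was +0.13 in replicate 1, -0.18 in replicate 2 and -0.99 in replicate 3, so most of it came from replicate 3. Cdk1 shows this per array: it stood at 10.25 and 10.67 in replicate 3 of p53ER and between 10.98 and 11.34 in the other 4, while the uninfected arrays ran from 10.98 to 11.38. Without the 3 arrays that stood apart the median was -0.34. In RNA from a whole culture, fewer cells in a phase and less RNA per cell cannot be told apart.

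Genes of the G1/S transition and of replication showed the same sign with smaller sizes. Of 27 tested, 25 were negative, with a median of -0.14. There were 5 lower and 0 higher at an unadjusted p under 0.05, against 1.91% and 2.93% of all genes: the licensing factor Cdc6 (-0.49, SE 0.16), the ribonucleotide reductase subunit Rrm2 (-0.45, SE 0.12), the transcription factor E2f1 (-0.40, SE 0.14), cyclin E1, Ccne1 (-0.40, SE 0.12), and the replication clamp Pcna (-0.28, SE 0.10). Ccne1 was lower in 6 of 6 pairs, as were 1.58% of all genes, with p53ER arrays from 8.02 to 8.43 and uninfected arrays from 8.37 to 9.06. By replicate the list's median was -0.00, -0.21 and -0.38. With 4-OHT the medians of the mitosis and G1/S lists were -0.44 and -0.30. Foxm1, a transcription factor of mitotic genes named after its value was seen, differed by -0.50 (SE 0.12) and was lower in 6 of 6 pairs.

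The inhibitors of cyclin-dependent kinases had no single direction. Of 7 tested, 5 were positive, with a median of +0.11, but the median was -0.05 at 0 h and +0.27 with vehicle. Without the 3 arrays it was +0.02 with 4 positive, and without p53ER vehicle replicate 1 alone it was -0.02. Beside Cdkn1a, Cdkn2b, which encodes p15, was higher by 0.43 (SE 0.15) in 6 of 6 pairs, or by 0.28 (SE 0.14) without the 3 arrays. Cdkn2a, which encodes p16 and Arf, differed by +0.42 (SE 0.27), at -0.07 at 0 h, +0.92 with vehicle and +0.15 (SE 0.24) without the 3 arrays. The list of p53 family genes and regulators, Mdm2 included, showed little: of 13 tested 8 were positive, with a median of +0.04. At an unadjusted p under 0.05 there were 0 in either direction. Trp53 itself is not analysed here.

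Genes that Myc proteins are known to activate did not stand higher alongside the Mycn signal. Of 20 tested, 18 were negative, with a median of -0.13, and by replicate +0.15, -0.26 and -0.28. The nucleolar proteins Nop56 (-0.37) and Npm1 (-0.39, SE 0.34) were among the lower ones. Nop56 was the 1 gene at an unadjusted p under 0.05, a level at which 1.91% of all genes were lower. Rrp9, which encodes a protein of the U3 nucleolar ribonucleoprotein, differed by +0.53 (SE 0.38), but 1 pair carried this: vehicle replicate 1 gave +1.94 and the other 5 pairs from +0.05 to +0.48. Without the 3 arrays Rrp9 differed by +0.23, and without single arrays by as little as +0.18. Of the other Myc family genes and partners, Myc differed by -0.10 and Max by +0.48 (+0.09 without the 3 arrays). The median of the list, Mycn included, was +0.13, with 6 of 9 tested genes above 0.

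**Figure D4:**
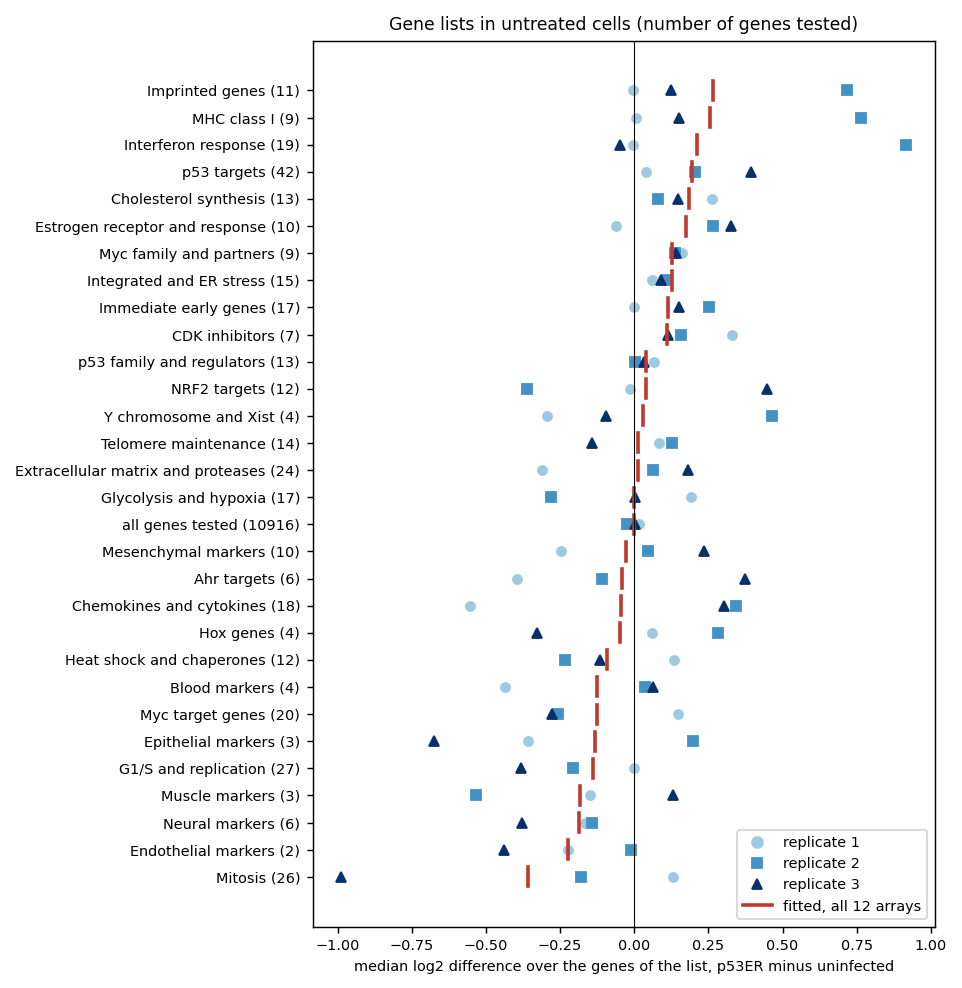
Median log2 difference between untreated p53ER and uninfected cells over the tested genes of each list (number of genes in parentheses), by replicate number (markers) and in the fit over all 12 arrays (red bar). The p53 targets lie right of 0 in all 3 replicates, mitosis spreads from +0.13 to -0.99, and the interferon, MHC class I and imprinted lists lie far right only in replicate 2.

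In other lists 1 replicate number set the median. Of 19 tested interferon response genes 16 were positive, with a median of +0.21, but by replicate the medians were -0.01, +0.92 and -0.05, and at 0 h and with vehicle the pairs of replicate 2 had +1.03 and +0.88. Oasl2, an interferon-induced gene, differed by +1.00 (SE 0.38). It was the 1 gene of the list at an unadjusted p under 0.05, a level at which 2.93% of all genes were higher. Its uninfected arrays of replicate 2 stood at 4.27 and 4.09, below the other 4 (6.03 to 7.19), while its p53ER arrays ran from 5.90 to 7.32. It differed by +0.63 (SE 0.39) without the 3 arrays. MHC class I genes had a median of +0.25 (8 of 9 positive), with +0.76 in replicate 2 and 0.00 and +0.15 in the others, and Psmb8, an immunoproteasome subunit, differed by +0.46 (SE 0.20). Imprinted genes had a median of +0.27 (10 of 11 positive), with +0.72 in replicate 2, and Dlk1, a growth regulator expressed from the paternal allele, differed by +0.65 (SE 0.28), or by +0.36 (SE 0.30) without the 3 arrays. Without the 3 arrays that stood apart, 1 of which was uninfected 0 h replicate 2, these medians were +0.14, +0.20 and +0.15.

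Enzymes of cholesterol synthesis showed a small difference that was similar in the replicates. Of 13 tested 11 were positive, with a median of +0.18 and +0.26, +0.08 and +0.15 by replicate. Cyp51, lanosterol demethylase, was higher by 0.29 (SE 0.12) and Fdps, farnesyl diphosphate synthase, by 0.24, each in 6 of 6 pairs. In this list 3 of 13 genes were higher in 6 of 6 pairs, against 1.97% of all genes. Of 15 genes of the integrated and endoplasmic reticulum stress responses 11 were positive (median +0.13), with Herpud1 at +0.47 (SE 0.21) and Sesn2, also a p53 target, at +0.45 (SE 0.20), or +0.74 (SE 0.22) without the 3 arrays. Heat shock proteins and chaperones had a median of -0.09 with 2 of 12 positive, namely the inducible Hspa1a (+0.46, SE 0.19) and Hspa1b (+0.39, SE 0.18), which are near-identical copies and may share probes. They stood at +0.27 and +0.22 without the 3 arrays. Of 14 telomere maintenance genes 7 were positive, with a median of +0.01 (+0.00 without the 3 arrays), and Terf2ip, which encodes the telomere protein Rap1, differed by +0.41 (SE 0.19, 6 of 6 pairs).

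Genes of the extracellular matrix differed in both directions around a median of +0.01 (+0.02 without the 3 arrays). Of 24 tested, 4 were higher and 1 lower at an unadjusted p under 0.05, against 2.93% and 1.91% of all genes. The higher ones were Eln (elastin, +0.57, SE 0.21), Thbs2 (thrombospondin 2, +0.54, SE 0.16) and the collagen VI chains Col6a1 (+0.38) and Col6a2 (+0.39). The lower one was Tnc (tenascin C, -0.50). Among chemokines and cytokines (median -0.04, 8 of 18 positive), Ccl5, a T cell chemoattractant, differed by +0.48 (SE 0.16). The median of that list was +0.11, with 11 positive, without the 3 arrays. Hgf, the ligand of the Met receptor, differed by -0.52 (SE 0.32), but by +0.00 without them. The median of the immediate early genes was +0.11 (+0.17 without the 3 arrays), and Fos differed by +0.50 (SE 0.28). The 10 mesenchymal markers had a median of -0.03, or +0.04 without the 3 arrays. Pdgfrb (+0.31, SE 0.18) and Col3a1 (+0.28, SE 0.21) differed most, and stood at +0.13 and +0.08 without them.

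No change of the difference between 0 h and vehicle was detected: 0 of 10916 genes (0%) passed in the limma test of that term, with 158 (1.45%) at an unadjusted p under 0.05. With 3 arrays per group this does not show that the difference was stable. Over all genes the 0 h and the vehicle contrast correlated at r -0.05. Over the 42 p53 targets r was 0.587 (Spearman correlation 0.362). Psrc1 had the largest difference of the 42 in both contrasts, and r without it was not computed here. Of the 3 arrays that stood apart, p53ER vehicle replicate 1 enters only the vehicle contrast and the others only the 0 h contrast. One of those, uninfected 0 h replicate 2, enters on the uninfected side. The correlation over all genes was not computed without these arrays, so it does not show whether the contrasts shared a general pattern. For Psrc1 the values were +2.43 at 0 h and +1.66 with vehicle, a change of -0.77 (SE 0.92). For Phlda3 they were +0.81 and +0.63, and for Cdkn1a +0.94 and +0.46.

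Among the genes with the smallest unadjusted p after Mycn, Foxo3 and Esr1, some were named after their values were seen. Choosing by p favours genes with little spread, so their small standard errors are not a result. Pnrc1, a nuclear receptor coactivator, stood at 7.50, 8.34 and 8.74 in p53ER and at 7.23, 7.36 and 7.99 in uninfected arrays, and was higher by 0.76 (SE 0.14) in 6 of 6 pairs. Hbp1, a repressor that slows entry into S phase, was higher by 0.48 (SE 0.10), and a second probe set by 0.51 (SE 0.14), each in 6 of 6 pairs. Edn1, the peptide endothelin 1, differed by -0.90 (SE 0.19) and was lower in 6 of 6 pairs. Dusp18, a phosphatase, differed by +0.95 (SE 0.20) untreated and by -0.44 (SE 0.43) with 4-OHT, and a second probe set differed by -0.03 (SE 0.28). With 4-OHT the differences of Pnrc1, Hbp1 and Edn1 were +0.82, +0.71 and -0.57, of the same sign as untreated.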

How the data were processed

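The authors deposited linear MAS5 intensities for 45101 probe sets and 18 arrays, per the submitters' processing notes, which give no version. Signals were brought to 1 trimmed mean (2%, 82.1) on every array, 4.11 (5% of that mean) was added and log2 taken, so fold changes of dim genes are understated. Symbols came from the platform annotation, updated by Entrez ID (34754 of 34958 probe sets with 1 gene matched; 932 had several genes and 9211 none listed). Each of 18194 genes was read by its brightest probe set, and the upper 60% by mean (10916) were tested with limma (trended, robust variance prior), with cell type, time point and replicate number as terms (7 residual degrees of freedom, 2 for the 4-OHT arrays). Benjamini-Hochberg adjustment of the two-sided p-values ran over all genes, with a threshold of 0.05. Values of further probe sets come from the same fit over 20709 probe sets.

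The comparison, its marker genes and the 29 gene lists (444 genes, 356 tested) were chosen with earlier results of these data known. Named by rule were Esr1, Mycn, Psrc1, Mdm2, Cdkn1a and Zfp365, up to 12 genes each way without overlap between groups, and from every list at most 4 that passed, or else the 2 most different. List members at an unadjusted p under 0.05, and others as stated, were named after their values were seen.

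After removing group means, same-numbered arrays correlated at -0.34 to 0.43, and for 7 of the 12 the closest array had the same number. Within replicate 3 all these correlations were positive (0.14 to 0.43). In replicates 1 and 2 they ran from -0.31 to 0.38 and from -0.34 to 0.36. The numbers were thus not shown to pair the arrays of replicates 1 and 2, while replicate 3 shared a shift. The block belongs to the comparison as set. No 2 arrays held identical values. The alternatives were no offset, a larger offset, quantile normalization, no filter or a stricter one, all probe sets, no replicate block, a plain variance prior, array weights, all 18 arrays, a minimum fold of 1.5, each time alone, and leaving out each array, replicate 3 or the 3 arrays that stood apart. The number of arrays limits the precision. Computations ran in R 4.3.3 with limma 3.58.1 and with data.table, version 1.17.8; plots were drawn with matplotlib 3.10.9.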

Additional observations from a re-analysis of the deposited data

Results flagged for a closer look

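In 4 genes the difference between p53ER and uninfected cells was larger with 4-OHT than untreated by the test of that change (limma over 18 arrays, adjusted p from 0.00477 to 0.0322): by 2.85 for Mdm2, 2.47 for Nlrc5, 2.33 for Cdkn1a and 1.53 for Phlda3, on the log2 scale.

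Among 138 groups of 6 arrays, 9 had 1 array far from the other 5, where chance gives about 1 in 20. Mxd4 stood at 7.38 in p53ER vehicle replicate 2, above the other p53ER arrays (7.03 to 7.13). Insig1, a regulator of cholesterol synthesis, stood at 8.22 in p53ER vehicle replicate 3 (others 6.98 to 7.29). In the same array Usp18, an interferon-induced protease, was lowest at 6.68 (others 8.20 to 8.81). In p53ER vehicle replicate 1, Snapc4 was lowest at 5.44 (others 5.61 to 5.68), as was Hgf at 2.75 (4.98 to 5.18). In p53ER 0 h replicate 3, Mbp, a myelin protein, was lowest at 4.01 (5.28 to 5.87), as was Hoxa11 at 3.81 (4.64 to 5.03). In uninfected 0 h replicate 2 the Y-linked Eif2s3y was lowest at 3.14 (5.40 to 5.89), and in uninfected vehicle replicate 2 Sesn2 was lowest at 4.46 (5.48 to 5.999). In 5 of the 9 the array was among the 3 that stood apart.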

How the results depend on the processing

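The untreated count was 0 with 528 genes at an unadjusted p under 0.05 (limma). It became 1 with a larger offset, a stricter filter, no replicate block, a plain variance prior, array weights and all 18 arrays, each time Mycn (adjusted p from 0.00174 with no replicate block to 0.0423), 1 without the 3 arrays that stood apart (Psrc1) and 1 without replicate 3 (Esr1, +2.98, adjusted p = 0.0291). Leaving out single arrays gave 0 to 1, the 1 being Mycn without p53ER vehicle replicate 1, uninfected 0 h replicate 2 or uninfected 0 h replicate 3. The count for 0 h against vehicle was 0 in every alternative run. The 13 genes with 4-OHT became 7 with a stricter filter, 21 with all probe sets, 5 with no replicate block, 0 with a plain variance prior (885 at an unadjusted p under 0.05) and 26 without replicate 3, and ran from 9 to 31 without single arrays.

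Of 88 named genes 73 kept their sign in all alternatives, Mycn between +6.50 and +7.41, Esr1 between +3.54 and +4.36 and Psrc1 between +1.71 and +2.40 without single arrays. Turned were Flt1 (0.015 with array weights); Des 0.18, Hgf 0.0026, Hoxa11 0.0183 and Kdm5d 0.12 without the 3 arrays; Cdkn2a -0.0675 and Cenpe 0.0065 at 0 h alone; and with vehicle alone Mdm2 -0.0439, Epcam -0.03, Cd74 0.0236, Ckm 0.27, Mbp 0.0694, Hoxa11 0.33, Eif2s3y -0.51 and Kdm5d 0.0053. Without single arrays or replicate 3, Zfp365 ran from -0.025 to 0.41, Epcam from -0.08 to 0.43, Flt1 from -0.18 to 0.10, Aldh3a1 from -0.93 to 0.0226, Hoxa11 from -0.48 to 0.039, Eif2s3y from -0.30 to 0.75 and Kdm5d from -0.26 to 0.0006. The causes were not tested. The median of the p53 targets ran from +0.16 to +0.26, of mitosis from -0.46 to -0.06. The 3 arrays per group and time limit what could be detected.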

Other observations

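Probe sets without a listed gene were read in the same way. Of the 2227 of these above the floor none passed the adjusted threshold (limma; smallest adjusted p over all 20709 probe sets 0.0655, with 876 at an unadjusted p under 0.05). In 3 of them all untreated p53ER arrays lay above all uninfected arrays and in 1 all lay below, against 19 and 15 of all probe sets.

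Several further genes were named after their values were seen, for their small unadjusted p, a choice that by itself favours small standard errors. Cd276, an immune checkpoint ligand, was higher in untreated p53ER cells by 0.68 (SE 0.15), Thra, the thyroid hormone receptor alpha, by 0.73 (SE 0.17), Trib2, a pseudokinase, by 0.60 (SE 0.14) and Penk, the enkephalin precursor, by 0.67 (SE 0.16). The same genes differed by +0.42, +0.44, +0.58 and +0.31 with 4-OHT. None passed the adjusted threshold (limma adjusted p = 0.944 each).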
